A study of Mus musculus with 12 samples.

Results

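This report describes 35 interferon-stimulated genes in whole mouse hearts with and without CYB5R3 in their cardiomyocytes. The genes were taken from a fixed list of names, namely Ifit1, Ifit2, Ifit3, Ifit3b, Isg15, Usp18, Irf1, Irf7, Irf9, Stat2, Oas1a, Oasl1, Oasl2, Ifih1, Dhx58, Zbp1, Rsad2, Bst2, Ifi27, Ifi35, Ifi44, Ifitm3, Xaf1, Rtp4, Trim30a, Parp9, Parp14, Gbp2, Gbp3, Gbp7, Igtp, Irgm1, Iigp1, Tap1 and B2m. All 35 were found among the 53700 genes counted and all 35 were among the 17847 genes with enough counts to be tested. RNA-Seq compared 6 ac-WT hearts (CYB5R3wt/wt, Myh6-CreERT2) with 6 ac-CYB5R3-KO hearts (CYB5R3fl/fl, Myh6-CreERT2), each from a separate mouse. Both groups carried the same Cre recombinase, which is driven by a cardiomyocyte promoter, and both were given 5 daily doses of tamoxifen (33 mg/kg/d) when aged 10 to 13 weeks, so that the floxed Cyb5r3 alleles were the difference between them. Hearts were taken 5 days after tamoxifen. Deletion was directed to cardiomyocytes only, and RNA came from ground tissue of the whole heart, in which fewer cells of a type and less RNA per cell cannot be told apart.

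Interferons are secreted proteins that cells release after they sense viral or misplaced nucleic acid. Type I interferon acts through its receptor, the kinases JAK1 and TYK2 and a complex that holds STAT2 and IRF9, which binds a DNA sequence called the interferon-stimulated response element (ISRE), while type II interferon has its own receptor and acts at the gamma-activated site (GAS). The induced genes encode proteins that block viral replication, sense nucleic acid, present antigen or feed back on the pathway. A low level of many of them is present in uninfected tissue, including the heart, where resident immune cells, endothelial cells and cardiomyocytes can each express them.

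Promoter sequences were read first, because they show which of the genes carry these motifs near their start. RefSeq promoters (GRCm38.p6) were matched for 27 of the 35 genes, and the 250 bases before the start site were searched on both strands for the ISRE core, GAAA and GAAA with 2 bases between them, and for GAS, TTC and GAA with 3 bases between them. Overlapping matches were counted separately. The ISRE core was present in 15 of 27 promoters (55.6%), against 936 of the 27025 promoters in the table (3.46%). GAS was present in 6 of 27 (22.2%), against 8.13% of the table, and either motif in 17 (63.0%), against 11.1%. A match describes letters in a window and is not a measured binding site. The following stretches, chosen after the expression values had been seen, stand for the groups described below and lie upstream of the gene's start, 5′ to 3′ on the strand of the gene, with motif letters in capitals.
Ifit1 (chr19:34640773-34640825, plus strand, 2 ISRE cores): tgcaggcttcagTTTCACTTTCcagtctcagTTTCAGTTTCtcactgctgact
Ifit3 (chr19:34583361-34583428, plus strand, 2 ISRE cores): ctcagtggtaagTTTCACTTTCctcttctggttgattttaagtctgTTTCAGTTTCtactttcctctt
Ifit3b (chr19:34607757-34607824, plus strand, 2 ISRE cores): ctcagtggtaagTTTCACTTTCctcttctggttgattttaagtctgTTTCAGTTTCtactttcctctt
Isg15 (chr4:156200863-156200908, minus strand, 3 overlapping ISRE cores): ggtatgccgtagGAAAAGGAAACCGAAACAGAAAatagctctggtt
Oas1a (chr5:120907526-120907557, minus strand, 2 overlapping ISRE cores): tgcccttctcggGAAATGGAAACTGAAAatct
Irgm1 (chr11:48871423-48871462, minus strand, 2 overlapping ISRE cores): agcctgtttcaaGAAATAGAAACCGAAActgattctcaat
Igtp (chr11:58199499-58199543, plus strand, 1 GAS and 1 ISRE core): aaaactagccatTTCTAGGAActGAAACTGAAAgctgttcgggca
Irf1 (chr11:53769912-53769944, plus strand, 1 GAS): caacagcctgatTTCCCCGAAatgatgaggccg
B2m (chr2:122147536-122147569, plus strand, 1 ISRE core): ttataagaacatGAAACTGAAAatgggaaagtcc
The stretches of Ifit3 and Ifit3b were identical, and these 2 genes are near copies of each other, so that reads could have been divided between them.

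Between 43393183 and 53754284 reads per heart were counted on genes. Values are given as CPM, the counts of a gene relative to the total of its library,, scaled between libraries by the TMM method, which lines up the bulk of genes. ac-WT mice 2 and 3 stood apart from the other 10 hearts, with TMM factors of 0.570 and 0.723 against 0.988 to 1.22, and with the 2 highest shares of mitochondrially encoded reads (35.3% and 34.8%, against 24% to 30.1%). The targeted gene, Cyb5r3, was lower in ac-CYB5R3-KO hearts, at 42.05 to 67.4 CPM against 81.9 to 185 CPM in ac-WT hearts (log2 fold change -1.22 ± 0.19 SE, edgeR quasi-likelihood test, adjusted p = 0.0450). Without TMM scaling the lowest ac-WT heart, mouse 2, had 46.6 CPM of Cyb5r3, below the knockouts (47.4 to 75.4 CPM). Cardiomyocyte markers were abundant in every heart, with a summed level of 15907 to 48125 CPM.

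The first question was whether loss of CYB5R3 from cardiomyocytes went with a different level of the interferon-stimulated genes. None of the 35 did at an unadjusted p under 0.05 by edgeR's two-sided quasi-likelihood test, 0 did after Benjamini-Hochberg adjustment over all genes tested, and 0 did at either threshold by DESeq2 or limma-voom. Over all genes tested, 14.6% had an unadjusted p under 0.05 and 0.101% an adjusted p under 0.05. The ranges of the 2 groups overlapped for 35 of 35 genes, whereas 1.55% of all genes tested had groups that did not overlap. The smallest p among the 35 was 0.183, for Igtp, with an adjusted p of 0.523. By an exact permutation test (two-sided, each possible split of the hearts into equal groups, smallest attainable p 0.00216), the smallest p was 0.292, for Ifit2. The log2 fold change (knockout over wild type) was above 0 for 22 genes and below 0 for 13, with a median of 0.05 against -0.01 for all genes tested. The difference of the group means on the log2(CPM + 1) scale was smaller than the pooled SD between hearts for 35 of 35 genes, and at most 0.629 of that SD. The share of all genes tested for which this holds was not computed, so the count is a description only.

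**Figure D1:**
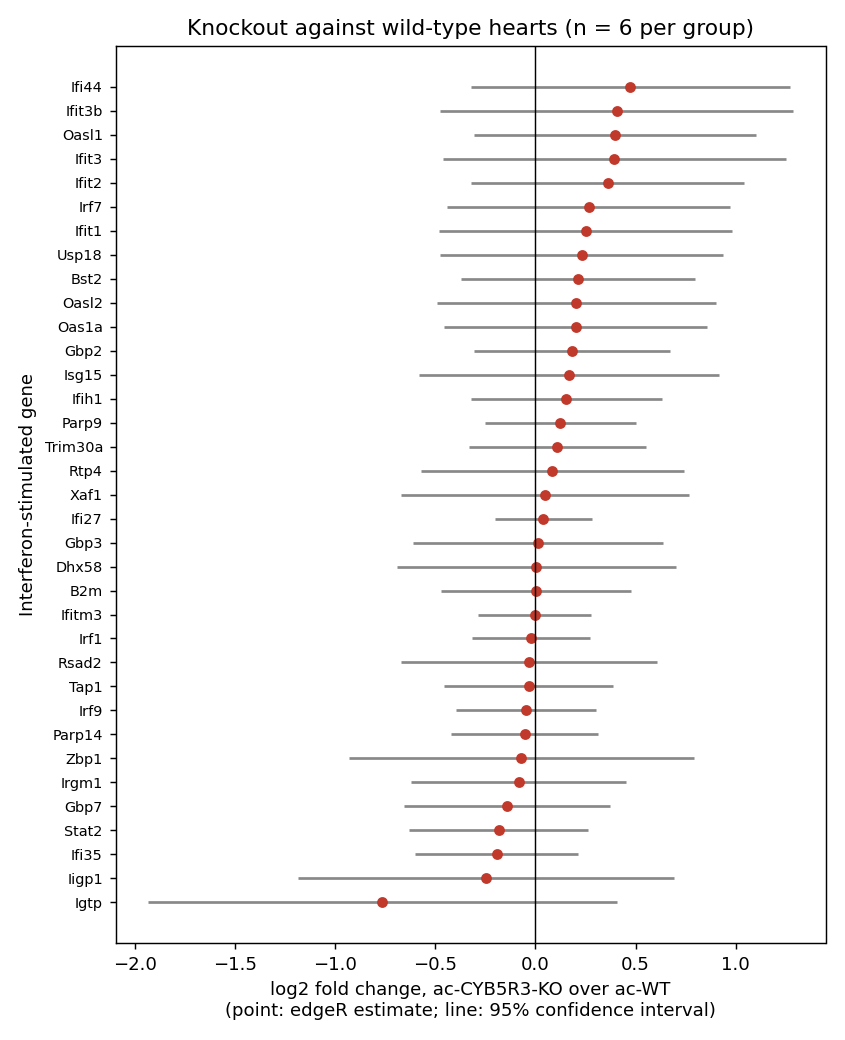
Log2 fold change of each of the 35 genes in ac-CYB5R3-KO over ac-WT hearts (x axis, n = 6 per group), with the edgeR estimate as a point and its 95% confidence interval as a line. The estimates run from -0.76 for Igtp to 0.47 for Ifi44, and each interval includes 0.

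These intervals set what the comparison could resolve. The 95% confidence interval lay within 1 log2 unit on either side of 0 for 28 genes, which leaves out a change of 2-fold or more in either direction, and reached past it for 7. The median half-width was 0.64 log2 units. The most precise estimate was that of Ifi27 (standard error 0.11) and the least precise that of Igtp (0.54). Scaling bears on the signs. With total counts in place of TMM, 34 of the 35 fold changes were above 0 with a median of 0.28, and the median over all genes tested moved from -0.01 to 0.26 alike. Relative to all genes, the median of the 35 was then 0.02 higher, against 0.06 with TMM. Without ac-WT mice 2 and 3, 14 were above 0, with a median of -0.03.

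The IFIT proteins, which bind viral RNA and hold back its translation, gave 4 of the 7 highest fold changes, each above 0 in the 20 alternative fits as well, and 0 of them passed the test. Their log2 fold changes shrank to 0.0080 to 0.065 with 1 surrogate variable and to 0.051 to 0.12 without ac-WT mice 2 and 3. Ifit1, which recognises RNA without the host's cap methylation, had 5.99 CPM in the lowest ac-WT heart, 12.1 at the median and 19.3 in the highest, against 6.88, 14.5 and 22.9 CPM in ac-CYB5R3-KO hearts. Ifit2 had 8.99, 20.9 and 28.7 CPM in ac-WT hearts and 14.2, 26.5 and 34.5 CPM in knockouts. Its log2 fold change was 0.36 ± 0.32 (SE, edgeR unadjusted p = 0.273). Each group spanned a range of more than 2-fold, and the difference between the medians was small beside it. Ifit3 had 9.96, 20.5 and 38.7 CPM in ac-WT hearts and 11.5, 31.4 and 47.6 CPM in knockouts (log2 fold change 0.39 ± 0.40). Its near copy Ifit3b had 6.47, 13.3 and 22.4 CPM against 6.60, 18.9 and 29.2 CPM (0.41 ± 0.41). Ifit1 and Ifit3b both lie inside the locus of Ifit1bl1 on chromosome 19, so that shared reads could have been counted for either.

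Isg15, a ubiquitin-like protein that is joined to other proteins, had 6.05, 14.2 and 23.6 CPM at the lowest, the median and the highest ac-WT heart and 8.13, 14.9 and 24.2 CPM in the knockouts. Usp18, the protease that removes ISG15 and restrains the interferon receptor, had 4.50, 7.94 and 14.2 CPM against 5.08, 10.5 and 15.1 CPM. The log2 fold changes were 0.17 and 0.23, inside intervals of -0.58 to 0.92 for Isg15 and -0.48 to 0.94 for Usp18.

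Of the 4 transcription factors, Irf7, which amplifies type I interferon production, varied most. It had 17.2, 31.5 and 54.9 CPM at the lowest, the median and the highest ac-WT heart and 18.5, 39.7 and 63.4 CPM in the knockouts (log2 fold change 0.27 ± 0.33). Irf1, a factor induced by type II interferon whose promoter held a GAS, was steadier, at 11.9 to 20.3 CPM and 13.6 to 20.0 CPM. Its log2 fold change was -0.02, with an interval of -0.32 to 0.28. Irf9 and Stat2 are the DNA-binding and the activating part of the complex that reads the ISRE. Irf9 had 17.7 to 30.0 CPM in ac-WT and 16.4 to 29.6 CPM in knockout hearts. Stat2 had 14.0, 26.1 and 40.2 CPM in ac-WT hearts and 18.0, 25.3 and 28.6 CPM in knockouts, with a log2 fold change of -0.18 ± 0.21.

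The oligoadenylate synthetase family makes or relates to enzymes that activate the RNase that degrades viral RNA. Oas1a had 6.77 to 22.8 CPM in ac-WT and 7.85 to 20.5 CPM in knockout hearts, and Oasl2 11.4 to 47.0 and 16.0 to 40.6 CPM. Oasl1, which holds back translation of Irf7, was the lowest of the 35 per length, at a mean of 1.29 CPM per kb of exon. Its values were 1.64, 2.69 and 5.27 CPM in ac-WT hearts and 1.85, 4.005 and 6.12 CPM in knockouts, with a log2 fold change of 0.40 ± 0.33 (SE, edgeR unadjusted p = 0.245). Oas1a has near-identical paralogs, and its reads could have been divided among them.

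The sensors of nucleic acid were the double-stranded RNA sensor Ifih1 (MDA5), its regulator Dhx58 (LGP2) and Zbp1, which senses left-handed nucleic acid and can start necroptosis. Their log2 fold changes were 0.16, 0.01 and -0.07. Zbp1 ran from 2.19 to 13.5 CPM in ac-WT hearts, with ac-WT mouse 4 the highest, and from 2.83 to 8.55 CPM in knockouts. Dhx58 ran from 2.86 to 11.5 CPM and from 3.37 to 7.69 CPM, again with ac-WT mouse 4 the highest.

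Among the other antiviral and induced genes, Ifi44 had the highest fold change of the 35. It had 4.97, 9.53 and 12.9 CPM at the lowest, the median and the highest ac-WT heart, and 4.21, 12.3 and 20.1 CPM in knockouts. The log2 fold change was 0.47 ± 0.37 (SE, edgeR unadjusted p = 0.222, adjusted p = 0.562), with a 95% confidence interval of -0.32 to 1.27. With TMM scaling, the lowest heart of the 12 and the highest were both knockouts. Bst2, which tethers budding virus to the cell surface, had 30.3, 54.9 and 65.7 CPM in ac-WT hearts and 30.2, 54.6 and 83.9 CPM in knockouts, with nearly equal medians. Ifitm3, which blocks viral entry at the endosome, had 96.1, 117 and 152 CPM against 103, 111 and 144 CPM, and its log2 fold change of -0.0038 had an interval of -0.28 to 0.28. Ifi35 had 11.7, 17.0 and 22.9 CPM in ac-WT and 10.4, 15.6 and 21.0 CPM in knockout hearts (-0.19 ± 0.19). The remaining genes of this group, Ifi27, Rsad2 (viperin), Xaf1, Rtp4 and Trim30a, had log2 fold changes of -0.03 to 0.11. The mono-ADP-ribosyltransferase family members Parp9 and Parp14 had log2 fold changes of 0.12 and -0.05.

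The interferon-inducible GTPases act on vacuoles that hold pathogens, and 4 of the 6 had fold changes below 0 with TMM scaling, against 1 with total counts. Igtp (Irgm3) had 9.99, 18.1 and 103 CPM at the lowest, the median and the highest ac-WT heart and 8.29, 18.4 and 28.9 CPM in knockouts. Its medians were almost equal, and its log2 fold change of -0.76 ± 0.54 (SE, edgeR unadjusted p = 0.183) rested on ac-WT mouse 2, at 103 CPM. Without that heart the log2 fold change was 0.16 (unadjusted p = 0.631). Iigp1 had 18.9, 34.0 and 99.9 CPM in ac-WT hearts and 15.3, 35.6 and 56.6 CPM in knockouts, and its log2 fold change of -0.24 became 0.23 without the same heart. Irgm1 ran from 14.7 to 44.9 CPM in ac-WT and from 18.8 to 35.1 CPM in knockout hearts. The guanylate-binding proteins were closer together. Gbp7 had 9.46, 15.2 and 21.3 CPM in ac-WT and 8.59, 14.9 and 18.6 CPM in knockouts (-0.14 ± 0.24), and Gbp2 and Gbp3 had log2 fold changes of 0.18 and 0.01.

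B2m, the light chain of MHC class I molecules, had the highest level of the 35 both in CPM and per length, at a mean of 456 CPM per kb of exon, followed by Ifitm3 at 178 and Bst2 at 69.3. It had 238, 412 and 506 CPM at the lowest, the median and the highest ac-WT heart and 287, 366 and 599 CPM in knockouts. Its log2 fold change was 0.0031, with an interval of -0.47 to 0.48. Tap1, which carries peptides into the endoplasmic reticulum for class I loading, had a log2 fold change of -0.03.

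**Figure D2:**
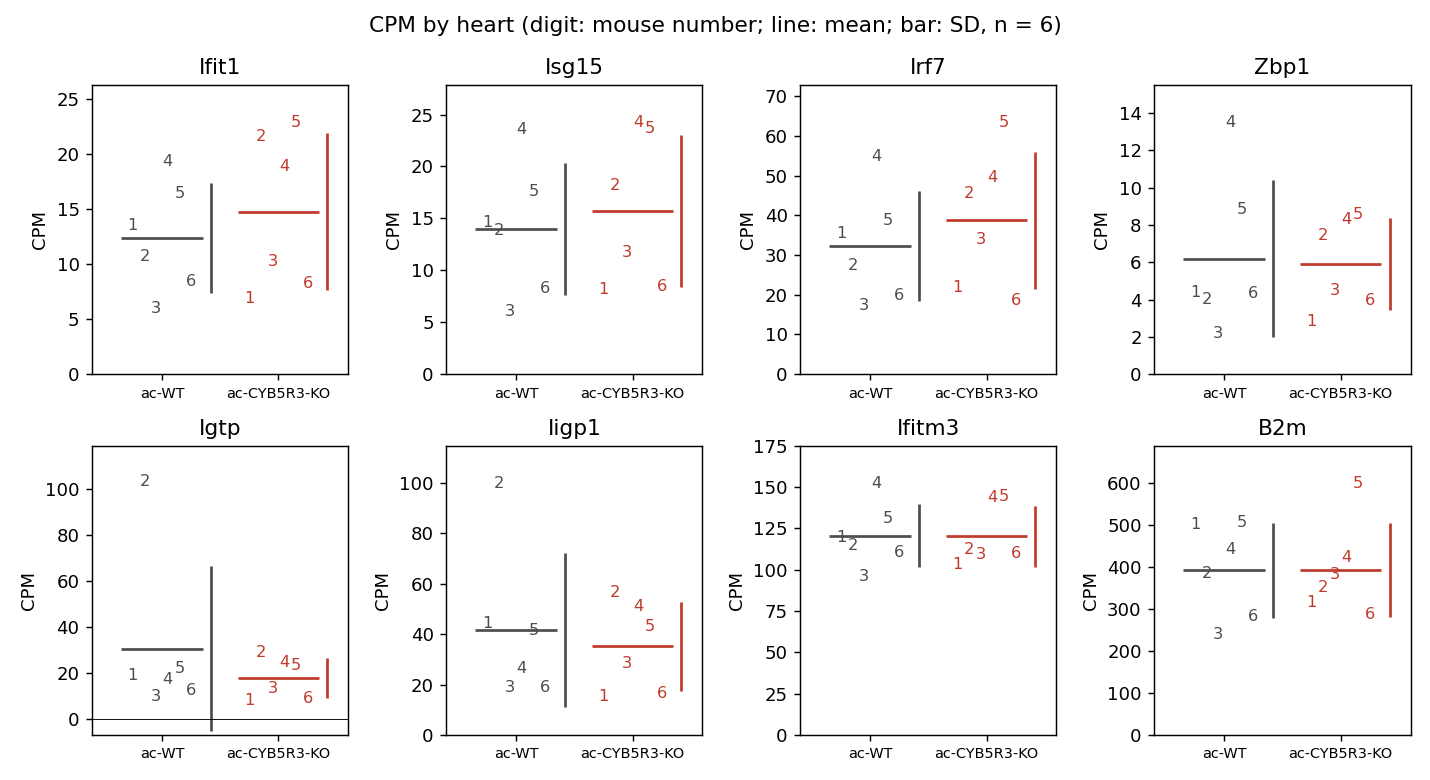
CPM of 8 genes (y axes, scaled by TMM) in each ac-WT and ac-CYB5R3-KO heart, with the mouse number as the plotting symbol, the mean as a horizontal line and the SD as a bar (n = 6 per group). The groups overlap in each panel, and ac-WT mouse 2 is the highest heart for Igtp (103 CPM) and Iigp1 (99.9 CPM), for Iigp1 with TMM scaling only.

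While the groups overlapped, the hearts within a group differed widely. The ratio of the highest to the lowest heart had a median of 2.87 in ac-WT (range over the 35 genes, 1.24 to 10.3) and 2.54 in ac-CYB5R3-KO hearts (1.40 to 4.78). The biological coefficient of variation, which is the spread between hearts of a group beyond counting error as edgeR estimates it, had a median of 36.1% for the 35 genes against 21.96% over all genes tested. It was above the median of all genes for 30 of the 35 and above their upper quartile (30.3%) for 21. The 4 Ifit genes had a median of 44.2%, and Igtp had the highest value (63.1%). Ifi27 had the lowest (15.6%), followed by Ifitm3 (17.7%) and Irf1 (18.2%). The median was 35.3% for the 15 genes with an ISRE core in the searched stretch and 32.98% for the 12 promoters without one. Counts per gene and heart were 47 to 31865.

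**Figure D3:**
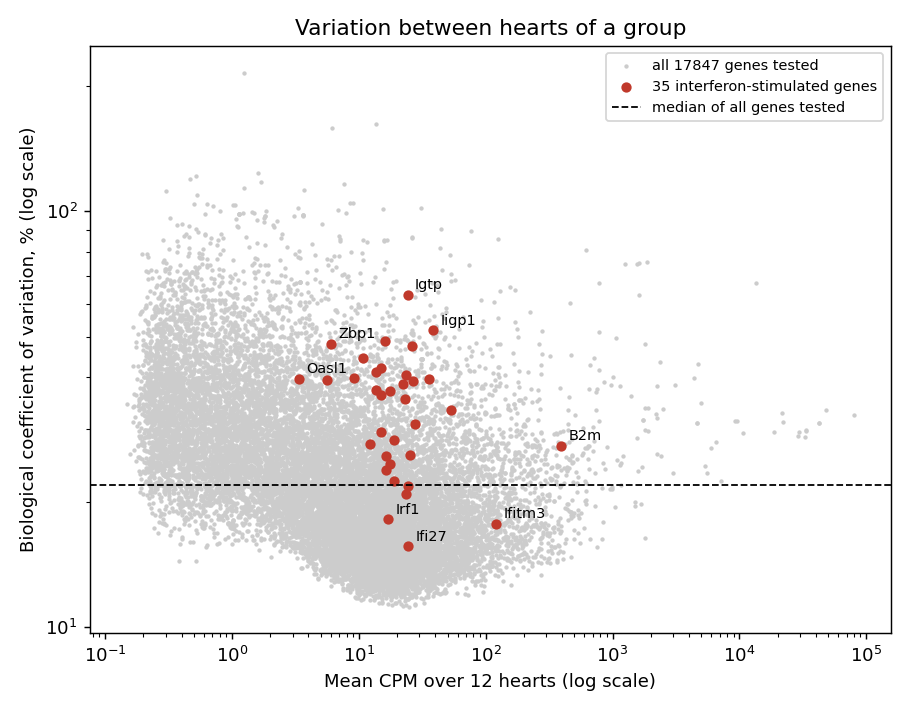
Biological coefficient of variation between hearts of a group (y axis, percent, log scale) against mean CPM over 12 hearts (x axis, log scale) for the 17847 genes tested (grey) and the 35 interferon-stimulated genes (red). 30 of the 35 lie above the dashed line, the median of all genes tested (21.96%).

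The same hearts stood high or low across many of the genes. For each gene, the deviation of a heart from the median of its own group was taken on the log2(CPM + 1) scale. The median deviation over the 35 genes was 0.46 in ac-WT mouse 4, which was the highest of its group for 22 genes and the lowest for 0. In that heart the median was -0.09 over the GTPases and 0.51 over the other genes. Over the 35, the median deviation was -0.56 in ac-WT mouse 3, the lowest for 21, and -0.43 in ac-WT mouse 6, the lowest for 9. Among knockouts, mouse 1 had -0.74 and was the lowest of its group for 25 genes, and mouse 6 had -0.59 and was the lowest for the other 10. Knockout mice 5 and 4 had 0.38 and 0.33 and were each the highest for 14 genes. The median deviation over all genes tested was within 0.01 of 0 in each heart. High and low hearts occurred in both groups. Without TMM scaling, the median deviation of the 35 genes was -0.95 in ac-WT mouse 3 and -0.78 in ac-WT mouse 2, and that of ac-WT mouse 4 and knockout mouse 1 was 0.49 and -0.78. On that scale ac-WT mouse 6 had -0.22 and was the lowest for 0 genes. Knockout mouse 4 had 0.19 and was the highest for 2.

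**Figure D4:**
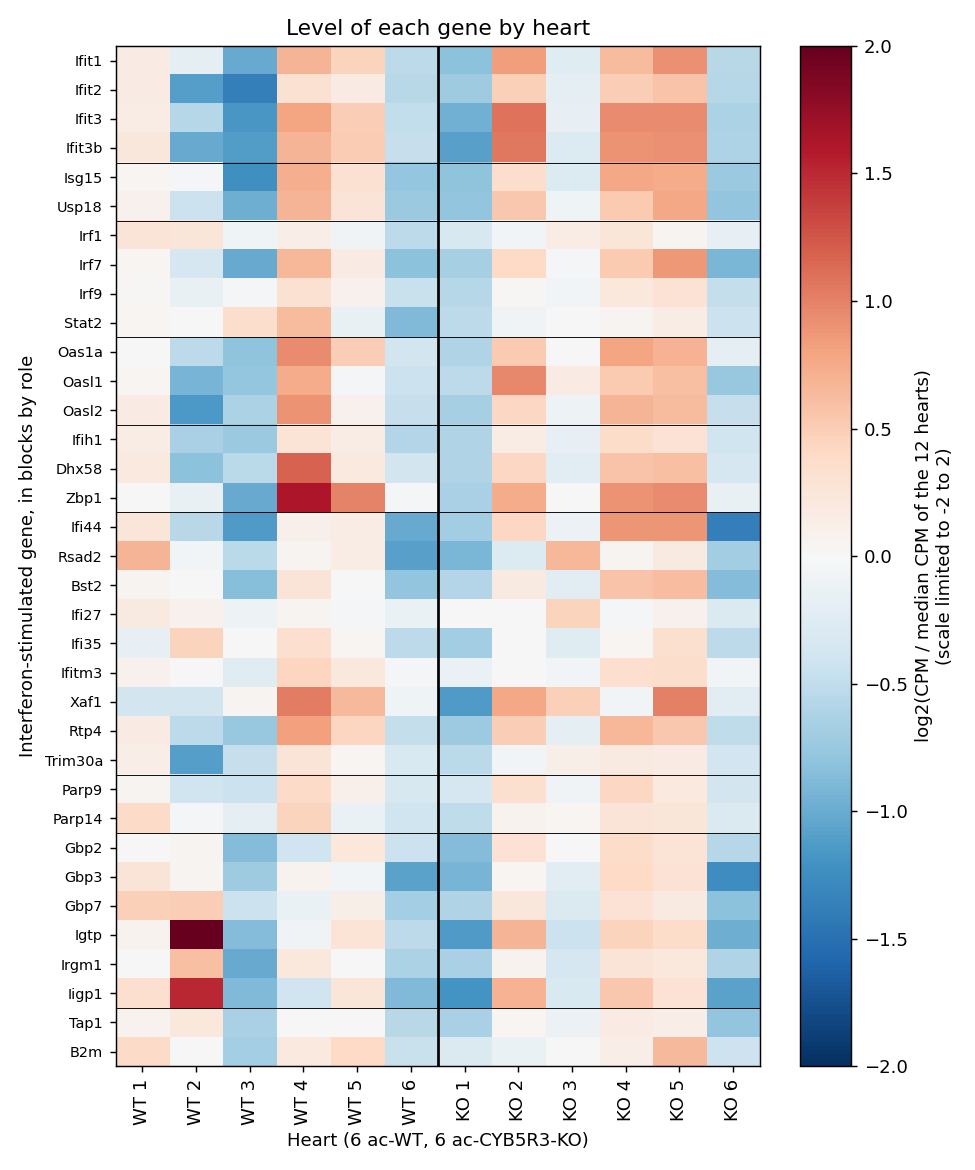
Level of each of the 35 genes (rows, in blocks by role) in each heart (columns, 6 ac-WT and 6 ac-CYB5R3-KO), as log2 of its CPM over the median CPM of the 12 hearts, on a colour scale limited to -2 to 2. Columns largely of one colour, such as red in ac-WT mouse 4 and blue in ac-CYB5R3-KO mice 1 and 6, show genes that were high or low together in a heart. In ac-WT mouse 4, Gbp2, Gbp7, Igtp and Iigp1 lie below that median. ac-WT mouse 2 is red for Igtp and Iigp1 and blue for most Ifit and Oas genes.

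A further list of 58 tested interferon-stimulated genes that are not among the 35 was compared by heart. Their median deviation had the same sign as that of the 35 in 11 of 12 hearts, ac-CYB5R3-KO mouse 3 being the exception (-0.20 for the 35 and 0.01 for the 58). In knockout mouse 2 it was near 0 (0.0037, against 0.23 for the 35). It was 0.31 in ac-WT mouse 4, -0.41 in knockout mouse 1 and 0.21 in knockout mouse 5. Genes measured in one heart share its library and its cell composition, so these signs are a description. The summed level of 11 macrophage and monocyte markers did not follow the same order. It was 1721 CPM in ac-WT mouse 4 and 1729 in ac-WT mouse 5, but 1854 CPM in ac-WT mouse 6 and 1354 CPM in knockout mouse 6, where the 35 genes were low, and 942 CPM in knockout mouse 5, where they were high. It was lowest, at 502 and 538 CPM, in ac-WT mice 2 and 3. The part of these cells in the levels of the 35 genes was not tested.

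**Figure D5:**
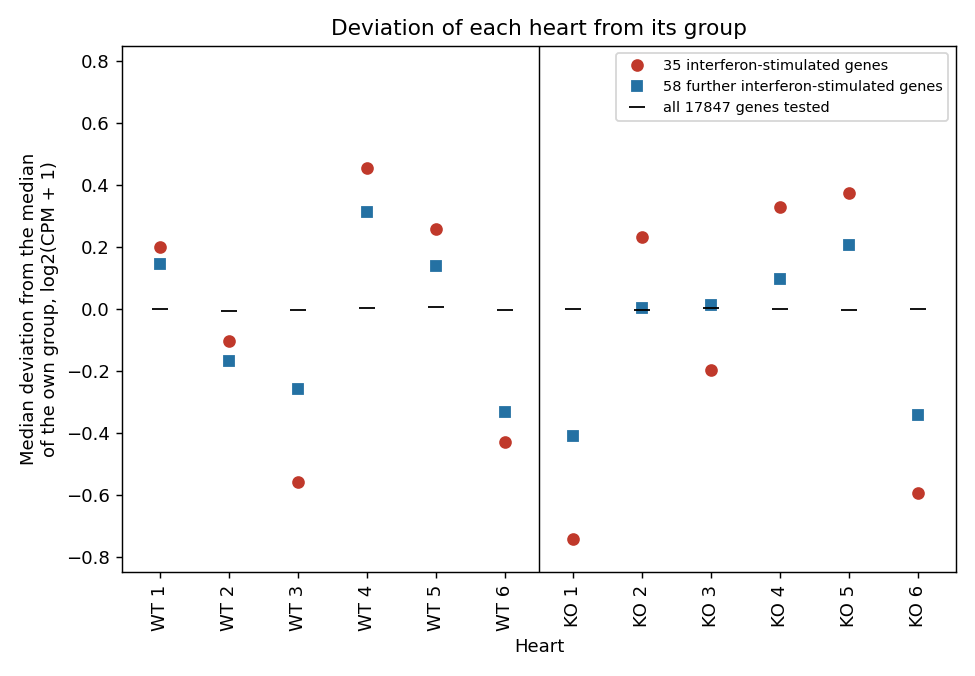
Median deviation of each heart from the median of its own group on the log2(CPM + 1) scale (y axis) for the 35 genes (circles), 58 further interferon-stimulated genes (squares) and all 17847 genes tested (dashes). The 35 genes run from -0.74 in ac-CYB5R3-KO mouse 1 to 0.46 in ac-WT mouse 4, while the dashes stay near 0.

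ac-WT mouse 2 differed from the others in which genes were high. It was the highest ac-WT heart for 6 of the 35, namely Igtp, Iigp1, Irgm1, Gbp7, Ifi35 and Tap1, and the lowest for 5, namely Oasl1, Oasl2, Dhx58, Xaf1 and Trim30a. With TMM scaling, the median deviation was 0.53 over the 6 GTPases and -0.18 over the other 29 genes. Without it, the median over the 35 was -0.78, and the 2 sets were not compared on that scale. In the wider lists it was the highest ac-WT heart for 24 of the 116 tested genes and the lowest for 29. The former included the GTPase Irgm2 (42.7 CPM, against 12.4 to 23.7 in the others) and Gbp6 (41.2 against 3.15 to 15.6). They also included the immunoproteasome subunit Psmb10 (76.3 against 27.4 to 40.1) and the chemokine Cxcl9 (28.5 against 3.77 to 10.6). The related Gbp4 and Gbp9 were highest in ac-WT mouse 1, and the chemokine Cxcl10 in ac-WT mouse 5. Gbp6 shares sequence with neighbouring Gbp genes, and its counts are uncertain to that extent. Without TMM scaling, ac-WT mouse 2 remained the highest ac-WT heart for Igtp (58.8 CPM, the next at 24.7) and Iigp1 (56.9, the next at 46.9) and was then the lowest for 17 of the 35. For Iigp1, knockout mouse 2 was then higher, at 63.8 CPM. On the same scale ac-WT mouse 2 had 23.4 CPM of Gbp6 (the next ac-WT heart at 15.4) and 16.2 CPM of Cxcl9 (the next at 10.5), whereas Irgm2 (24.3, the next at 23.5) and Psmb10 (43.5, the next at 41.8) were close to the next heart. Ifng, which encodes type II interferon, had 1, 3, 0, 2, 2 and 0 counts in ac-WT mice 1 to 6, and 0, 0, 0, 1, 0 and 0 in knockout mice 1 to 6.

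The genes upstream of and around the 35 were taken from lists that leave the 35 out. Of 131 genes listed, 127 were matched and 116 tested, and 3 of these had an unadjusted p under 0.05 (2.59%, against 14.6% of all genes tested) and 0 an adjusted p under 0.05 by edgeR, against 1 by DESeq2. The interferons were near or at the floor. Of the 8 interferon genes matched, 0 passed the filter on low counts. Ifnb1 had at most 1 count in any heart and Ifng at most 3, and Ifna2, Ifna4, Ifnk, Ifne, Ifnl2 and Ifnl3 had 0 in each, which allows up to 3 counts per library, or 0.0507 to 0.105 CPM with TMM scaling. These genes were not tested, so a difference between the groups could not be assessed there at this depth.

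Of 15 receptors and signal transducers, 0 passed the unadjusted threshold. The smallest p values belonged to Irf3, the factor that starts interferon transcription (log2 fold change -0.31, edgeR unadjusted p = 0.104), to the receptor chain Il10rb (-0.27, unadjusted p = 0.129) and to Ifnlr1, the receptor of type III interferon (0.28, unadjusted p = 0.304). Of 14 further sensors and adaptors, 0 passed. Mavs, the mitochondrial adaptor of the RNA sensors, had -0.12 (edgeR unadjusted p = 0.207), the RNA-dependent kinase Eif2ak2 0.21 (unadjusted p = 0.255) and Ifi204, a DNA sensor, -0.34 (unadjusted p = 0.302). Of 11 tested genes that restrain the response, 0 passed, with Isg20 at 0.46 (edgeR unadjusted p = 0.0795), Rnaseh2a at -0.21 (unadjusted p = 0.0844) and Ptpn11 at 0.19 (unadjusted p = 0.111). The same test found 1 of 18 genes of antigen presentation below 0.05. Psme1, a proteasome activator subunit induced by type II interferon, ran from 59.5 to 111 CPM in ac-WT and from 48.1 to 69.6 CPM in knockout hearts (-0.36 ± 0.16, edgeR unadjusted p = 0.0418, adjusted p = 0.321). Its partner Psme2 had -0.28 (edgeR unadjusted p = 0.0509), and Calr, a chaperone of class I loading, 0.17 (unadjusted p = 0.281). Both differences depended on scaling and on ac-WT mouse 2, the highest ac-WT heart for both genes with TMM. With total counts, Psme1 had -0.05 (edgeR unadjusted p = 0.753) and Psme2 0.03 (unadjusted p = 0.829), and mouse 5 was the highest ac-WT heart for both. Without ac-WT mouse 2, Psme1 had -0.21 (edgeR unadjusted p = 0.125). Psme1 overlaps Emc9 in the annotation, so its counts could include reads of that gene.

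Of the 58 further interferon-stimulated genes tested, 2 had an unadjusted p under 0.05, both higher in knockouts, and 0 an adjusted p under 0.05. Ube2l6, the enzyme that passes ISG15 to its targets, had 9.82, 15.8 and 18.0 CPM at the lowest, the median and the highest ac-WT heart and 18.8, 23.1 and 36.6 CPM in knockouts. The groups did not overlap (two-sided exact permutation p = 0.00216, the smallest this test can give, over 12 hearts). Its log2 fold change was 0.70 ± 0.18 by edgeR (unadjusted p = 0.00187, adjusted p = 0.173; by DESeq2, adjusted p = 0.0281), while Isg15 itself had 0.17. Markers of red blood cells moved in the same direction. Their summed level was 222 to 4486 CPM in ac-WT and 1323 to 12226 CPM in knockout hearts, with 3 of 4 tested markers at an unadjusted p under 0.05, and knockout mouse 3 was the highest heart both for them and for Ube2l6. Their part in the level of Ube2l6 was not tested. Ifit1bl1, whose locus holds Ifit1 and Ifit3b, had 1.85 to 2.72 CPM in ac-WT and 2.35 to 4.73 CPM in knockout hearts (0.52 ± 0.18, edgeR unadjusted p = 0.0121, adjusted p = 0.225). Slfn5 had the next smallest edgeR p (0.0575), at -0.27.

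Markers of the cell types that could supply these transcripts were compared in the same way. Of 11 macrophage and monocyte markers 0 had an unadjusted p under 0.05, and their summed level was 502 to 1854 CPM in ac-WT and 808 to 1354 CPM in knockout hearts. Plasmacytoid dendritic cells, the main producers of type I interferon, were represented by Siglech at no more than 0.975 CPM in any heart. At an unadjusted p under 0.05 were 0 of 3 tested markers of these cells, 0 of 4 of neutrophils, 0 of 8 of endothelial cells and 0 of 6 of fibroblasts. The tested markers of plasmacytoid dendritic cells were Siglech, Tcf4 and Bst2, and Bst2 is itself among the 35. Of 8 cardiomyocyte markers 3 were lower in knockouts at that threshold (Myh6, Tnni3 and Myl2), and of 5 markers of pericytes and smooth muscle 2 were lower and 1 higher. Of 9 markers of T and NK cells 4 passed the unadjusted threshold, 3 of them higher in knockouts, at a summed level of 2.80 to 10.5 CPM over the 12 hearts. B and plasma cell markers were higher in knockouts, at a summed level of 7.45 to 20.2 CPM against 2.52 to 5.48 CPM, with Jchain and Igkc at an adjusted p under 0.05. The part of these cells in the levels of the 35 genes was not tested.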

How the data were processed

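Heart RNA of the 12 mice had been made into stranded total RNA libraries and read at 75 bp. The authors deposited counts, a whole number of reads per Ensembl gene and heart, neither normalized nor filtered, and 0 columns were left unused. The submitters' processing notes name STAR, featureCounts and GRCm39, while the study's methods describe mm9 with Cufflinks and Cuffdiff. The strand setting and annotation are not given in the sources used here, so reads of overlapping genes could have been counted for either. Cuffdiff works on alignments, so edgeR was used on the counts.

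Counts were filtered by filterByExpr (minimum count 10), scaled by TMM and tested with edgeR's quasi-likelihood test (version 4.0.16, R 4.3.3), two-sided, without covariates, with Benjamini-Hochberg adjustment over 17847 genes. Thresholds were an unadjusted and an adjusted p under 0.05, and intervals are 95%. Single genes were also compared by an exact permutation test on log2(CPM + 1). Alternatives were DESeq2 (1.42.0), limma-voom (limma 3.58.1), total counts, no filter, a replicate block, at least 10 counts in every library, 1 surrogate variable (sva 3.50.0), leaving out ac-WT mice 2 and 3 and leaving out each heart. The fits were checked on simulated counts. Exon lengths came from GENCODE M1 (NCBIM37), gene names also from RefSeq (GRCm38.p6). Ifi27 was listed as Ifi27l1 and Ifit3b as I830012O16Rik.

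The genes and lists were chosen with earlier results of these data known. Full values were given for genes with an unadjusted p under 0.05, the 5 highest and 5 lowest fold changes and the 3 highest levels, and, in the wider lists, for the 3 smallest p values of each list. Others were named after their values were seen. A gene of the wider lists is not reported here. Mice with the same replicate number are separate animals. p-values weigh the difference between groups against the spread between mice, and single reads are not independent molecules.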

Additional observations from a re-analysis of the deposited data

Results flagged for a closer look

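Within each group, the highest and the lowest heart were compared with the nearest other heart for each of the 35 genes, by Dixon's test at the 95% level. Of the 70 groups checked 3 were picked out, where chance gives about 1 in 20. Igtp in ac-WT mouse 2 was at 103 CPM, with the next ac-WT heart at 21.9 CPM. Iigp1 in ac-WT mouse 2 was at 99.9 CPM, with the next at 44.2 CPM. Dhx58 in ac-WT mouse 4 was at 11.5 CPM, with the next at 5.85 CPM. Without TMM scaling these values were 58.8, 56.9 and 11.995 CPM, against 24.7, 46.9 and 6.59 CPM in the next ac-WT hearts. The 3 picks apply to the TMM-scaled values, and for Iigp1 the next heart was much closer without that scaling.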

How the results depend on the processing

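Of the 35 genes, 0 had an unadjusted p under 0.05 in any of the 20 alternatives, namely 12 that each left out 1 heart and 8 others. The smallest p was 0.0533 among the former and 0.115 among the latter. The lowest count of any of the 35 in a heart was 47. The median log2 fold change of the 35 was -0.0057 to 0.24 when 1 heart was left out and -0.03 to 0.28 in the other alternatives. The SD between single hearts was 0.41, which is larger than the standard error of a difference between groups. The fold change of 10 genes, among them the 4 Ifit genes, Ifi44, Irf7, Usp18, Oasl1, Bst2 and Gbp2, was above 0 in each alternative, and that of the other 25 changed sign in at least 1 without passing a test. Some of the 10 came close to 0. Their log2 fold changes were 0.0080 (Ifit2) to 0.30 (Ifi44) with 1 surrogate variable and 0.024 (Usp18) to 0.28 (Ifi44) without ac-WT mice 2 and 3.

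Over all genes, 18 had an adjusted p under 0.05. There were 8 with total counts, 437 with DESeq2, 2 with limma-voom, 35 without a filter, 16 with at least 10 counts in every library, 3 with 1 surrogate variable, 7 without ac-WT mice 2 and 3, and 2 to 38 when 1 heart was left out. Of the 116 genes of the wider lists, 3 had an unadjusted p under 0.05, against 2 to 8 when 1 heart was left out and 3 to 11 in the other alternatives, the most with 1 surrogate variable. The number tested was 120 without a filter and 114 with at least 10 counts in every library. With DESeq2, 1 of the 116 (Ube2l6) had an adjusted p under 0.05. The cause of these differences was not tested.

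The replicate numbers in the labels were shared by both groups, but mice with 1 number are separate animals. Deviations from the group means correlated by 0.14 on average between same-numbered hearts (-0.07 to 0.35 over 6 pairs) and by -0.03 between others, and 3 of 6 hearts correlated best with their own number. With a replicate block in the model, 2 genes had an adjusted p under 0.05, 0 of the 35 an unadjusted p under 0.05, and the log2 fold changes of Zbp1, Gbp3 and Xaf1 changed sign, to 0.052, -0.025 and -0.012.

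The other log2 fold changes whose sign turned were, with total counts, Zbp1 at 0.092, Gbp7 at 0.15, Ifitm3 at 0.23, Stat2 at 0.11, Irf9 at 0.21, Irgm1 at 0.21, Irf1 at 0.27, Ifi35 at 0.11, Rsad2 at 0.24, Parp14 at 0.20, Tap1 at 0.24 and Iigp1 at 0.16. With limma-voom they were Zbp1 at 0.028, Gbp3 at -0.033, Ifitm3 at 0.00089 and Xaf1 at -0.018. Without a filter they were Ifitm3 at 0.018 and Irf1 at 0.0051, and with at least 10 counts in every library Ifitm3 at 0.00024. With 1 surrogate variable they were Ifih1 at -0.045, B2m at -0.10, Gbp7 at 0.0034, Isg15 at -0.022, Oasl2 at -0.12, Oas1a at -0.11, Trim30a at -0.11, Irgm1 at 0.011, Irf1 at 0.10, Igtp at 0.15, Xaf1 at -0.12, Dhx58 at -0.31, Rsad2 at 0.021, Rtp4 at -0.19, Parp9 at -0.021, Tap1 at 0.0057 and Iigp1 at 0.25. Without ac-WT mice 2 and 3 they were Ifih1 at -0.032, B2m at -0.12, Gbp3 at -0.022, Isg15 at -0.010, Oasl2 at -0.065, Oas1a at -0.045, Trim30a at -0.092, Irf1 at 0.031, Igtp at 0.040, Xaf1 at -0.096, Dhx58 at -0.25, Rtp4 at -0.15, Parp9 at -0.0053 and Iigp1 at 0.11. With 1 heart left out, the range was -0.16 to 0.090 for B2m, -0.12 to 0.35 for Dhx58, -0.12 to 0.16 for Gbp3, -0.050 to 0.10 for Ifi27, -0.062 to 0.074 for Ifitm3, -0.96 to 0.16 for Igtp, -0.44 to 0.23 for Iigp1, -0.11 to 0.039 for Irf1, -0.13 to 0.036 for Irf9, -0.21 to 0.097 for Irgm1, -0.13 to 0.043 for Parp14, -0.23 to 0.16 for Rsad2, -0.030 to 0.30 for Rtp4, -0.11 to 0.065 for Tap1, -0.011 to 0.21 for Trim30a, -0.15 to 0.27 for Xaf1 and -0.23 to 0.32 for Zbp1.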

Other observations

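Gbp5, a guanylate-binding protein that is a close relative of Gbp2 and promotes inflammasome assembly, was below the filter on low counts and was picked out after its values had been seen. It had 455 counts (8.58 CPM) in ac-WT mouse 1 and 313 counts (10.9 CPM) in ac-WT mouse 2, and 2 to 16 counts in each of the other 10 hearts. Both high hearts were wild type. ac-WT mouse 1 was not high for Igtp (19.0 CPM) or Cxcl9 (10.6 CPM) on the scale of ac-WT mouse 2, but was the highest ac-WT heart for Gbp3, Gbp4 and Gbp9.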
